A study of Mus musculus with 16 samples.

Results

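Complement factor D, encoded by Cfd and also called adipsin, was examined together with 8 other complement genes, Cfb, C3, Cfp, Cfi, C2, Mbl2, Hc and C9, in mouse liver. The 9 genes were picked by name from the array annotation, and all 9 were measured, among 18505 genes tested. They had been chosen with their values in these comparisons known, so their levels and differences are given as a description, with no test of their own. A further 47 complement genes in 5 lists, of which 39 could be tested, gave the tests. The lists too were chosen with earlier results of these data known, which limits how their adjusted p-values can be read.

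Complement is a cascade of plasma proteins, most of them secreted by hepatocytes, that tags and lyses microbes. The classical, lectin and alternative pathways all lead to cleavage of C3, and the terminal proteins then assemble into a pore. Factor D is the serine protease that cleaves factor B once it is bound to activated C3, and it is best known as a product of adipocytes. The glucocorticoid receptor (GR) is the nuclear receptor through which dexamethasone, a synthetic glucocorticoid, acts.

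Livers came from male C57BL/6 mice, 3 months old, in 4 groups of 4 arrays. The groups were GR knockout given dexamethasone (KO dex), GR knockout without it (KO untreated), wild type given dexamethasone (WT dex) and wild type without it (WT untreated). Total RNA was labelled with Cy3 and each of the 16 samples was hybridised to an Agilent mouse array. The treatment protocol speaks of a liver knockout and of vehicle where the sample sources say no treatment, and the titles of the knockout samples carry the word PBS. How dexamethasone was dosed and for how long, which Cre driver was used and which exons were removed were not given in the sources used here. Nothing states that each replicate was a separate mouse, so p-values measure only the spread between these samples.

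Each level below is the log2 of the processed spot signal minus the array's 75th percentile, so that 0 is the 75th percentile of that array. The level of Nr3c1, which encodes GR, was −0.11, 0.44, 0.00 and 0.34 on the KO dex arrays, 0.24, 0.45, 0.57 and 0.41 on the KO untreated arrays, 1.92, 2.18, 2.17 and 2.26 on the WT dex arrays, and 2.48, 2.47, 2.52 and 2.13 on the WT untreated arrays. On this probe, the brightest of 4 for the gene, no KO array reached any WT array, and the KO minus WT difference was −1.96 ± 0.14 with dexamethasone (SE, limma adjusted p = 6.32e-06) and −1.99 ± 0.14 without it (limma adjusted p = 1.71e-05). The other 3 probes gave −0.97 to −1.95 with dexamethasone and −1.62 to −2.25 without it, the weakest being one on which KO dex array 1, at −1.46, was above every WT array. Whether any of these probes lies in the deleted part is not known. The signal at the 75th percentile was 309 on KO untreated array 1 and 400 on WT untreated array 4, against 524 to 691 on the other arrays, and KO untreated array 1 had the lowest mean correlation with its own group, 0.963. All 7 measured hepatocyte markers were above background on every array. All 4 arrays of a group shared a slide, and the effect of slide cannot be told apart from that of group. In bulk liver, fewer cells of a type and less RNA per cell cannot be told apart either.

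The sequence before the Cfd start is shown because Cfd is the gene with the largest difference here, and the one before C9 because C9 differed the other way. RefSeq gave such a sequence for 6 of the 9 genes (Cfd, C3, Cfp, Mbl2, Hc and C9) on GRCm38.p6, which is not the build of the probe positions. Cfd lies at chr10:79890603-79890852 on the plus strand and C9 at chr15:6445096-6445345 on the plus strand, each window being the 250 bases before the start. Capitals mark a glucocorticoid response element half-site, AGAACA.
Cfd: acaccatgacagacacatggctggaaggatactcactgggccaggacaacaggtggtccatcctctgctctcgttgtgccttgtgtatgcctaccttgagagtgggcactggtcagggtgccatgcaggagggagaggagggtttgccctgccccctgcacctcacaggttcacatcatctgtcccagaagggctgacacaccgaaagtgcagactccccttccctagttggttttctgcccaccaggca
C9: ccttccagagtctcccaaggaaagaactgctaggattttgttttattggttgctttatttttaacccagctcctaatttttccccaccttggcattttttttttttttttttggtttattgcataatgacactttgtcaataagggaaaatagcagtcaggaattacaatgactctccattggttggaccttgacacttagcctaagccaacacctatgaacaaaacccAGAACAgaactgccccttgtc
The search covered both strands for the full element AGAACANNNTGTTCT, its half-site AGAACA, the C/EBP element TTGCNNAA and the TATA box TATAAA, the half-site being part of the full element. The Cfd window held none of them. The C9 window held the half-site 21 bases before the start and a C/EBP element 132 bases before it, and the C3 window held a C/EBP element 45 bases before the start. The Hc window held a TATA box 239 bases before the start. Of 32851 promoter windows of the same length, 0.00913% held the full element, 16.1% the half-site, 9.56% the C/EBP element and 12.4% the TATA box.

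Cfd was far higher in KO than in WT liver, with and without dexamethasone, and no other gene of the 9 differed by a like amount. Its probe lies at chr10:79672573-79672632 on mm7, plus strand, in the transcript NM_013459. The Cfd level was 7.77, 7.84, 6.17 and 3.29 on the KO dex arrays, 6.84, 7.10, 7.32 and 6.96 on the KO untreated arrays, 2.36, −0.45, 2.66 and 3.15 on the WT dex arrays, and 0.43, 0.92, 1.87 and 1.30 on the WT untreated arrays. Every KO array was above every WT array of the same treatment, narrowly so with dexamethasone, where KO dex array 4 at 3.29 stood next to WT dex array 4 at 3.15. The group means were 6.27 ± 2.13 in KO dex, 7.06 ± 0.21 in KO untreated, 1.93 ± 1.62 in WT dex and 1.13 ± 0.61 in WT untreated (SD, n = 4 each). In order of level the groups ran KO untreated, KO dex, WT dex and WT untreated, and within each genotype the treated and untreated arrays overlapped.

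**Figure D1:**
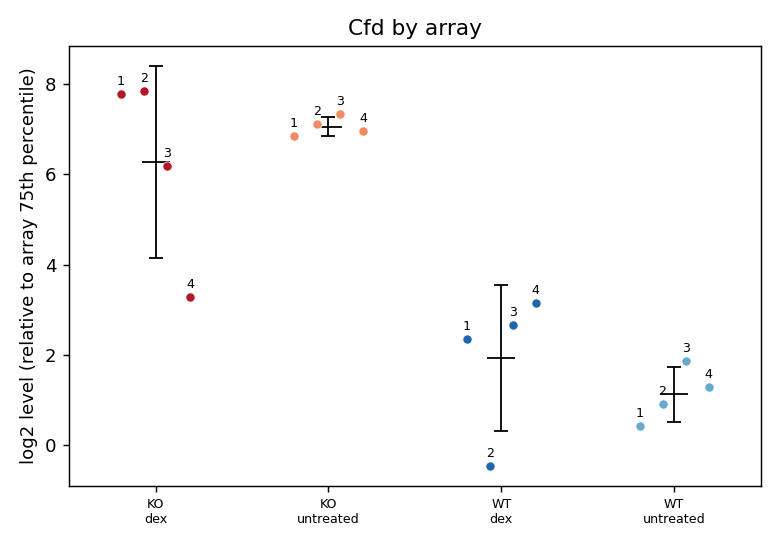
Log2 level of Cfd on each array, relative to the array's 75th percentile, in the 4 groups; points are arrays with their replicate number, the horizontal mark is the group mean and the bar 1 SD. The KO untreated arrays lie between 6.84 and 7.32, while KO dex array 4 is at 3.29 and WT dex array 2 at −0.45.

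The KO minus WT difference of Cfd was 4.34 ± 0.88 with dexamethasone, 20.2-fold, and 5.93 ± 0.88 without it, 60.9-fold (log2 ± SE). By the size of its difference Cfd stood 16th of 18505 genes with dexamethasone and 2nd without it. With dexamethasone the value was 5.33 without KO dex array 4 and 3.54 without WT dex array 2. Between treated and untreated arrays Cfd differed by −0.79 ± 0.88 in KO and by 0.80 ± 0.88 in WT, both smaller than their standard errors. The KO value was 0.20 without KO dex array 4, and the WT value was 1.60 without WT dex array 2. The difference between those responses was −1.59 ± 1.25.

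Genes next to Cfd on the chromosome did not share its difference in size. Of the 3 tested genes on each side (Ptbp1, Plppr3, Prtn3, Med16, R3hdm4 and Kiss1r), Prtn3, a neutrophil serine protease, was the one called, higher in KO dex than in WT dex by 1.16 ± 0.35 (limma adjusted p = 0.0265). Over all genes, 14.2% were called higher in that comparison. Without dexamethasone none of the 6 was called, beside 2.06% of all genes higher and 0.751% lower, and their differences ran from −0.21 to 0.43. Beside Prtn3, the summed linear level of 7 neutrophil markers was 0.449 to 2.18 in KO dex, 1.14 to 4.24 in KO untreated, 0.271 to 0.699 in WT dex and 0.671 to 2.42 in WT untreated, and their part in the Prtn3 value was not tested. S100a9 and Mpo were above background on all 4 arrays of each group, S100a8 on 3 KO dex, 4 KO untreated, 1 WT dex and 4 WT untreated arrays, and Elane on 0 of 16. KO minus WT of S100a8, S100a9 and Mpo ran from 0.82 to 1.39 with dexamethasone and from 0.65 to 1.01 without it. None of these was called, where 14.2% and 2.06% of all genes were called higher.

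Because Cfd is known as an adipocyte product, adipocyte genes were read beside it. Adipoq, which encodes the adipocyte hormone adiponectin, was above background on 0 of 4 KO dex arrays, 1 of 4 KO untreated arrays, 1 of 4 WT dex arrays and 0 of 4 WT untreated arrays, and Lep, which encodes leptin, on 0 of 16. The single WT dex array with Adipoq above background was array 4, at −0.72, and it also had the highest Cfd level of its group. The KO untreated one was array 2, at −4.27, with Cfd at 7.10, below array 3 at 7.32. KO dex arrays 1 and 2, with Cfd at 7.77 and 7.84, had Adipoq at −5.65 and −5.45, not above background. The summed linear level of the 8 adipocyte markers was 13.5 to 29.5 in KO dex, 5.22 to 10.2 in KO untreated, 9.57 to 19.4 in WT dex and 4.82 to 8.25 in WT untreated. Most of that sum was Fabp4, a fatty acid carrier of adipocytes and macrophages, which rose with dexamethasone in KO (1.52 ± 0.30, limma adjusted p = 0.0126) and in WT (1.25 ± 0.30, limma adjusted p = 0.014). None of the 4 adipocyte markers that could be tested (Plin1, Retn, Fabp4 and Adig) was called between KO and WT with or without dexamethasone. Over all genes, 14.2% were called higher with dexamethasone and 2.06% without it. Plin1, which coats lipid droplets, was above background on 4 KO dex, 4 KO untreated, 2 WT dex and 1 WT untreated arrays, with KO minus WT at 0.18 ± 0.50 with dexamethasone and 0.96 ± 0.50 without it (limma adjusted p = 0.307). Adig was above background on 4 KO dex, 1 KO untreated, 0 WT dex and 1 WT untreated arrays, with KO minus WT at 0.55 ± 0.30 (limma adjusted p = 0.205) and 0.39 ± 0.30. The part of these markers in the Cfd values was not tested. Retn, which encodes resistin, had a KO minus WT difference of 1.62 ± 0.59 without dexamethasone (limma adjusted p = 0.145) and −0.10 with it. Every KO untreated array was above every WT untreated array, where 7.99% of all genes were higher without overlap. Retn was dim, above background on 3 KO dex, 4 KO untreated, 3 WT dex and 2 WT untreated arrays.

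The other genes of the alternative pathway, Cfb, C3, Cfp and Cfi, differed between KO and WT by no more than 0.56 on average. Cfb encodes factor B, the substrate of factor D, and its probe lies at chr17:32952681-32953037 on mm7, minus strand. The Cfb level was 8.38, 8.42, 8.44 and 8.41 on the KO dex arrays, 8.65, 8.33, 8.32 and 8.21 on the KO untreated arrays, 8.04, 8.11, 8.23 and 8.34 on the WT dex arrays, and 8.55, 8.47, 8.27 and 8.68 on the WT untreated arrays. All KO dex arrays were above all WT dex arrays, by 0.23 ± 0.12 on average, and the untreated groups overlapped, with a difference of −0.12 ± 0.12. With quantile normalization the first of these was 0.41 ± 0.10, and with normexp background correction it was 0.03 ± 0.14.

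C3 encodes the central protein on which the pathways meet. Its main probe, chr17:55414567-55414626 on mm7, minus strand, is spotted 10 times per array. The C3 level was 10.005, 9.92, 9.87 and 9.82 on the KO dex arrays, 10.53, 10.07, 9.89 and 9.90 on the KO untreated arrays, 9.70, 9.77, 10.02 and 9.96 on the WT dex arrays, and 10.09, 10.02, 9.89 and 10.38 on the WT untreated arrays. The groups overlapped in every comparison, and KO minus WT was 0.04 ± 0.15 with dexamethasone and 0.00 ± 0.15 without it. Over the arrays 26 spots of this probe were saturated, so that their signal is a lower bound. A second, unsaturated C3 probe gave 0.02 ± 0.23 with dexamethasone and −0.35 ± 0.23 without it.

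Cfp encodes properdin, which stabilises the alternative pathway convertase and is made mainly by myeloid cells (probe at chrX:19358766-19358825 on mm7, minus strand). The Cfp level was 2.69, 2.67, 3.17 and 2.85 on the KO dex arrays, 4.42, 3.09, 2.93 and 3.13 on the KO untreated arrays, 2.14, 2.60, 2.78 and 2.67 on the WT dex arrays, and 2.65, 2.71, 2.77 and 3.19 on the WT untreated arrays. KO untreated array 1 stood above the rest at 4.42, and the groups overlapped in every comparison. KO minus WT was 0.30 ± 0.27 with dexamethasone and 0.56 ± 0.27 without it, or 0.22 without KO untreated array 1. Beside Cfp, the summed level of 8 macrophage and Kupffer cell markers was 67.4 to 132 in KO dex, 107 to 191 in KO untreated, 47.5 to 84.4 in WT dex and 81.1 to 108 in WT untreated. None of those 8 markers was called in any comparison. Of all genes, 14.2% were called higher and 8.20% lower in KO with dexamethasone, and 2.06% and 0.751% without it. The shares called for dexamethasone were 3.63% in KO and 12.0% in WT, and 4.63% for the interaction. All 8 markers were nevertheless higher in KO, with a median of 0.41 with dexamethasone and 0.51 without it. Over all genes the medians were 0.09 and 0.05. With dexamethasone all 8 were lower, in KO and in WT. The part of these markers in the Cfp values was not tested.

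Cfi encodes factor I, the protease that inactivates C3b (probe at chr3:129714547-129714606 on mm7, plus strand). Its level was 7.42, 7.50, 7.60 and 7.91 on the KO dex arrays, 7.60, 7.63, 7.46 and 7.36 on the KO untreated arrays, 7.59, 7.71, 7.87 and 7.96 on the WT dex arrays, and 7.82, 7.74, 7.72 and 8.08 on the WT untreated arrays. All KO untreated arrays were below all WT untreated arrays, by −0.33 ± 0.14 on average, while the treated groups overlapped, with a difference of −0.18 ± 0.14, or 0.00 with quantile normalization.

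C2 encodes the protease that takes the place of factor B in the classical and lectin pathways, and its gene adjoins Cfb: the used probes lie 6073 bases apart on mm7, that of C2 at chr17:32958754-32958813, minus strand. The C2 level was 6.17, 6.46, 6.56 and 6.66 on the KO dex arrays, 6.77, 6.64, 6.37 and 6.47 on the KO untreated arrays, 5.91, 5.77, 6.08 and 5.94 on the WT dex arrays, and 6.46, 6.28, 6.18 and 6.28 on the WT untreated arrays. The WT dex arrays were the lowest of all, below every KO dex array and below every WT untreated array. KO minus WT was 0.53 ± 0.13 with dexamethasone, 1.45-fold, and 0.26 ± 0.13 without it. In WT, dexamethasone minus untreated was −0.37 ± 0.13, against −0.10 ± 0.13 in KO. A second C2 probe gave 0.62 ± 0.14 for KO minus WT with dexamethasone and 0.15 ± 0.14 without it.

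Mbl2 encodes a mannose-binding lectin that starts the lectin pathway (probe at chr19:29938699-29938758 on mm7, plus strand). Its level was 7.90, 8.15, 8.28 and 8.52 on the KO dex arrays, 8.21, 8.31, 8.17 and 8.49 on the KO untreated arrays, 6.93, 7.67, 7.87 and 8.04 on the WT dex arrays, and 8.07, 8.27, 8.15 and 8.11 on the WT untreated arrays. As with C2 the WT dex arrays were lowest, all of them under the WT untreated arrays, although WT dex array 4 overlapped KO dex. KO minus WT was 0.59 ± 0.20 with dexamethasone, 1.502-fold, and 0.15 ± 0.20 without it. The first of these was 0.35 without WT dex array 1. In WT, dexamethasone minus untreated was −0.52 ± 0.20, or −0.29 without WT dex array 1, and in KO it was −0.08 ± 0.20.

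Hc encodes C5, from which the terminal pathway starts (probe at chr2:34990690-34990749 on mm7, minus strand). Its level was 8.06, 7.95, 7.95 and 7.94 on the KO dex arrays, 8.64, 7.97, 7.74 and 7.61 on the KO untreated arrays, 8.01, 7.95, 8.15 and 8.12 on the WT dex arrays, and 8.34, 8.18, 8.001 and 8.60 on the WT untreated arrays. The groups overlapped throughout, with KO minus WT at −0.08 ± 0.19 with dexamethasone and −0.29 ± 0.19 without it, or −0.51 without KO untreated array 1.

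C9 encodes the protein that polymerises into the membrane pore (probe at chr15:6310121-6310180 on mm7, plus strand). Its level was 2.16, 2.59, 1.91 and 2.78 on the KO dex arrays, 3.06, 2.28, 2.06 and 1.90 on the KO untreated arrays, 3.53, 3.27, 3.28 and 3.02 on the WT dex arrays, and 3.65, 3.08, 2.78 and 3.80 on the WT untreated arrays. C9 was lower in KO, the opposite of Cfd: all KO dex arrays were below all WT dex arrays, and the untreated groups overlapped through KO untreated array 1 at 3.06. KO minus WT was −0.92 ± 0.28 with dexamethasone, 1.89-fold lower, and −1.002 ± 0.28 without it, 2.00-fold lower. Dexamethasone minus untreated was 0.03 ± 0.28 in KO and −0.05 ± 0.28 in WT. Beside C9, Hnf4a, Apoa1 and Ttpa, 3 of the 7 hepatocyte markers, were called lower in KO dex than in WT dex. Hnf4a differed by −1.14 ± 0.17 (limma adjusted p = 0.000437), Apoa1 by −0.80 and Ttpa by −1.32. Over all genes, 8.20% were called lower in that comparison. Alb, Ttr, Apoa2 and Fgb, the other 4, were not called, with KO minus WT from −0.22 to 0.13. Without dexamethasone 1 of the 7 was called lower, beside 0.751% of all genes. There KO minus WT was −0.39 for Hnf4a, −0.88 for Apoa1 and −0.43 for Ttpa. In WT, dexamethasone minus untreated was 0.58 for Hnf4a, 0.25 for Apoa1 and 0.61 for Ttpa. In KO it was −0.17, 0.33 and −0.27 in the same order. The part of these markers in the C9 values was not tested. The summed level of the 7 markers was 2712 to 3228 in KO dex, 2832 to 4305 in KO untreated, 3102 to 3556 in WT dex and 2987 to 4445 in WT untreated.

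**Figure D2:**
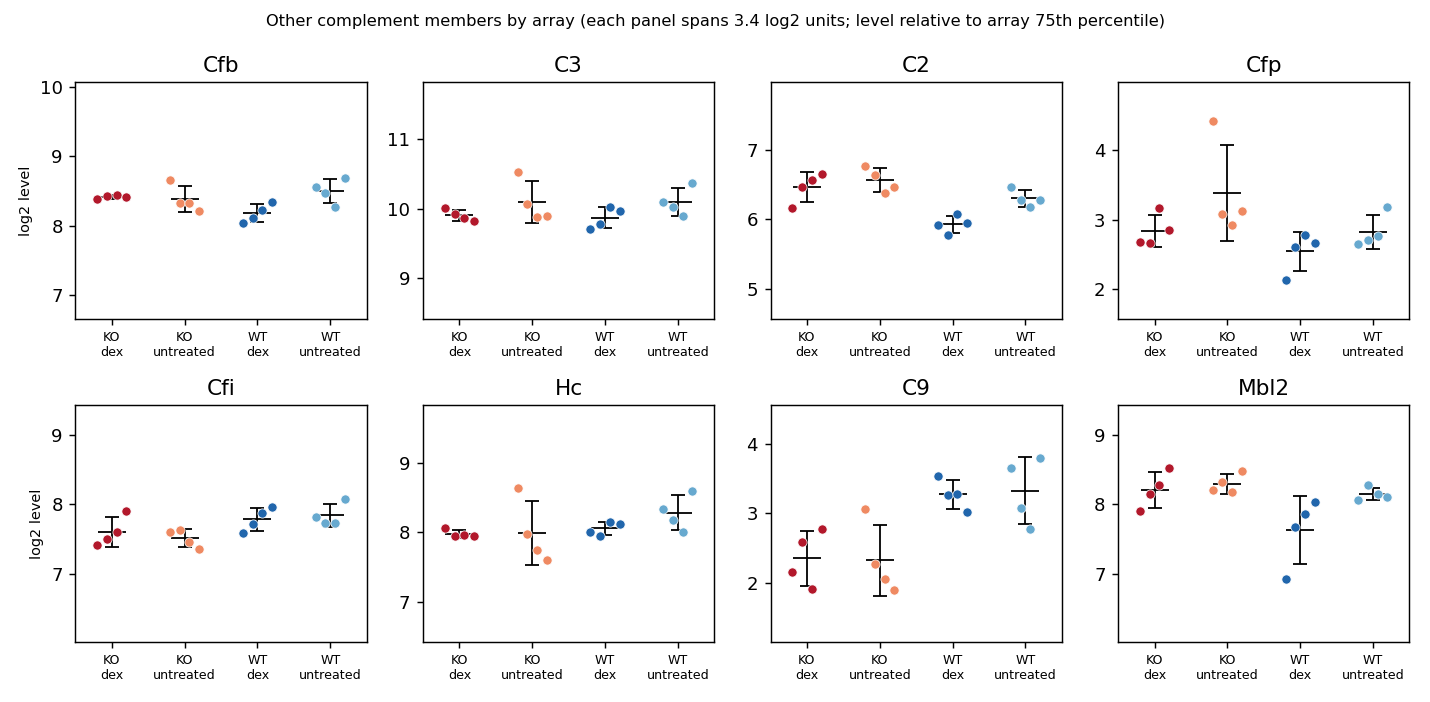
Log2 level of the 8 genes other than Cfd on each array, relative to the array's 75th percentile, each panel spanning the same log2 range; points are arrays, the horizontal mark is the group mean and the bar 1 SD. C2 is lowest on the WT dex arrays and C9 is lower on the KO arrays than on most WT arrays.

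The fit over all genes also gives calls for the 9 genes, from which nothing is read because the genes were chosen on these comparisons. KO dex against WT dex called 3 higher (Cfd, C2 and Mbl2) and 1 lower (C9), where 14.2% of all genes tested were called higher and 8.20% lower. KO untreated against WT untreated called 1 higher (Cfd) and 0 lower, where 2.06% of all genes were called higher and 0.751% lower. Dexamethasone called 0 of 9 in KO and 0 of 9 in WT, where 3.63% and 12.0% of all genes were called, and its interaction with genotype called 0, where 4.63% were called. Arrays of the groups did not overlap for 3 higher and 1 lower of the 9 genes in KO dex against WT dex, where 19.9% of all genes were higher and 11.8% lower without overlap. In KO untreated against WT untreated, 1 was higher (Cfd) and 1 lower (Cfi), where 7.99% of all genes were higher and 3.66% lower without overlap. In WT, arrays of the treated and untreated groups did not overlap for C2 and Mbl2, both lower with dexamethasone, where 12.8% of all genes were lower without overlap. The median KO minus WT difference of the 9 genes was 0.23 with dexamethasone and 0.00 without it, beside 0.09 and 0.05 over all genes tested. For dexamethasone in WT the median of the 9 was −0.23, with 8 of the 9 below 0 and Cfd above it, beside −0.04 over all genes.

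**Figure D3:**
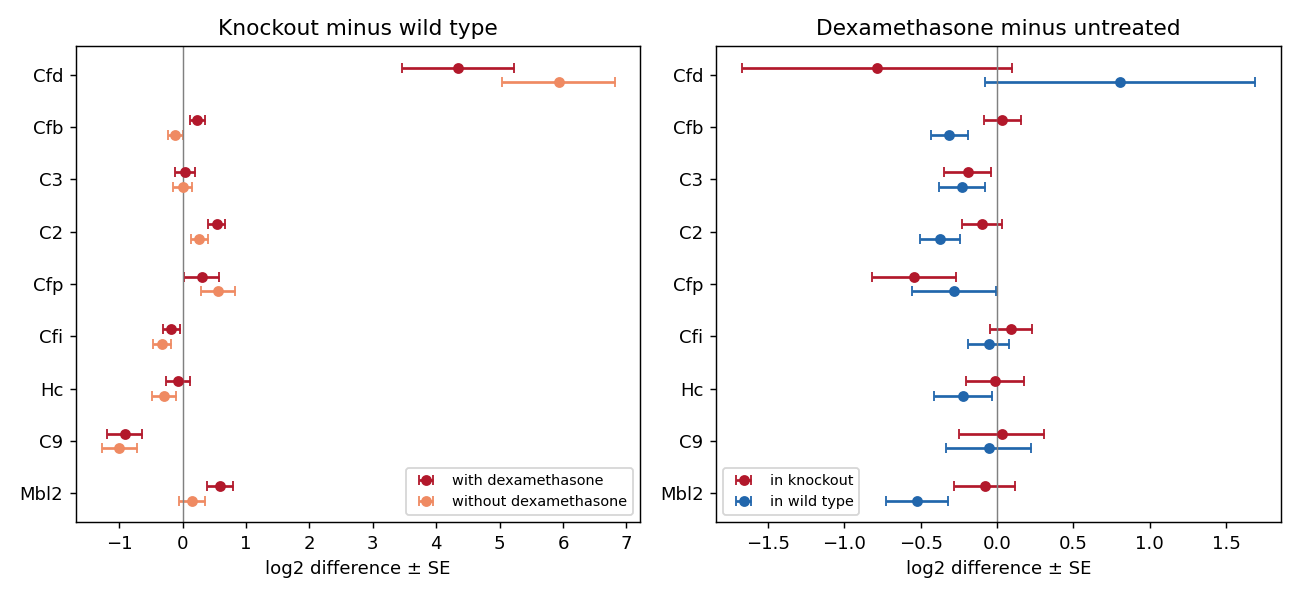
Log2 differences with their standard errors (bars) for the 9 genes, KO minus WT on the left panel and dexamethasone minus untreated on the right panel, whose horizontal scales differ. Cfd is at 4.34 and 5.93 on the left panel, and the other 8 genes lie between −1.002 and 0.59.

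Across the 16 arrays, Pearson r of the other 8 genes with Cfd ran from −0.80 to 0.54. It was 0.54 for C2, 0.40 for Cfp, 0.34 for Mbl2, 0.10 for C3, 0.09 for Cfb, −0.32 for Hc, −0.71 for Cfi and −0.80 for C9, the last being largest in size and opposite in sign to Cfd. After each group's mean was taken off, r was −0.31 for C2, −0.11 for Cfp, −0.26 for Mbl2 and 0.18 for C3. It was then 0.04 for Cfb, 0.05 for Hc, −0.35 for Cfi and −0.29 for C9. These values describe 16 arrays that share the 4 groups. The genes most like Cfd among 15127 were Pax5 (r = 0.95), Runx2 (0.95), Kbtbd11 (0.94), Lgals1 (0.93) and Pyroxd2 (0.92). Pax5 and Runx2, both transcription factors, were not above background on any WT array. Pax5 was above it on 4 KO dex and 2 KO untreated arrays, and Runx2 on 4 and 3. Both thus passed the probe filter only through KO arrays, and their r mostly sets dim KO signal against background in WT. Lgals1, which encodes galectin-1, averaged 4.75 in KO dex, 5.403 in KO untreated, 3.45 in WT dex and 3.64 in WT untreated.

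Within groups, genes among the most like Cfd were Palmd (r = 0.87), Tpm2 (0.87), Arcn1 (0.86) and Mettl9 (0.84). Tpm2, a tropomyosin of muscle and other contractile cells, was 3.80, 3.70, 2.63 and 1.46 on the KO dex arrays, 3.402, 3.10, 3.33 and 3.65 on the KO untreated arrays, 1.66, 1.02, 1.58 and 3.10 on the WT dex arrays, and 1.71, 1.61, 2.18 and 2.40 on the WT untreated arrays. Its lowest value with dexamethasone fell on the same arrays as that of Cfd, KO dex array 4 and WT dex array 2. Palmd was also lowest on those arrays within its groups, at 3.27 and 3.69. Both genes were picked by their r with Cfd within groups, so this match follows from the choice and adds no evidence. Of the complement lists, Cd59b, an inhibitor of the membrane pore picked out after its values were seen, came closest within groups, with r = 0.82.

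**Figure D4:**
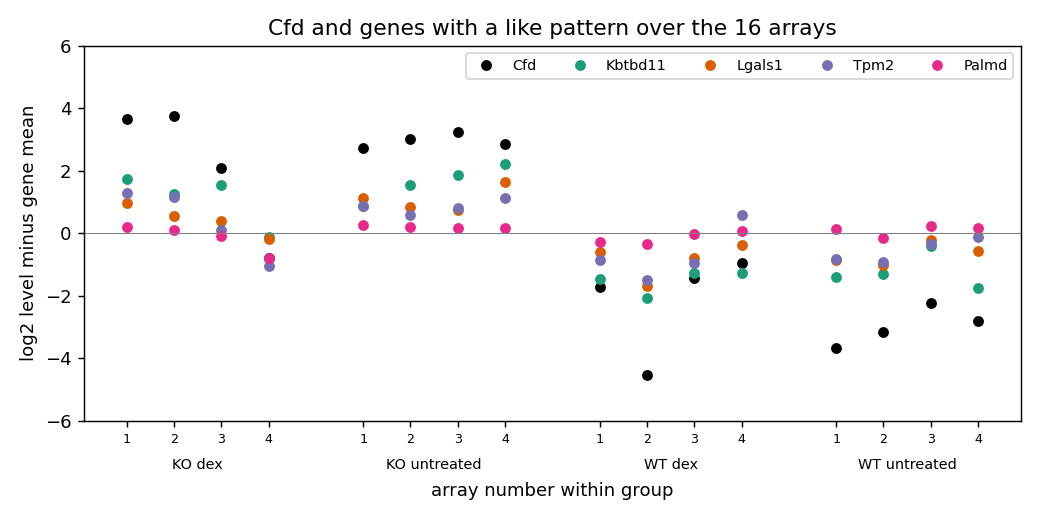
Log2 level minus the gene's own mean over the 16 arrays, for Cfd and 4 genes of like pattern, with arrays grouped along the horizontal axis. KO dex array 4 and WT dex array 2 are the lowest of their groups for Cfd, Kbtbd11, Lgals1, Tpm2 and Palmd. The 4 genes were picked by their r with Cfd on these arrays, so a like pattern follows from the choice.

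Of the 39 tested list genes, 1 rose and 3 fell in KO dex relative to WT dex, beside 14.2% of all genes called higher and 8.20% lower. In KO untreated relative to WT untreated 1 rose and 1 fell, beside 2.06% higher and 0.751% lower. There 26 of the 39 were below 0 and 13 above it, against 22 and 17 with dexamethasone. Arrays did not overlap without dexamethasone for 8 lower and 4 higher, where 3.66% of all genes were lower and 7.99% higher. With it they did not overlap for 5 lower and 1 higher, where the shares were 11.8% and 19.9%. In the untreated groups all 9 fluid-phase regulators and 4 terminal genes tested were below 0, and 5 of 6 receptors above it. Of the classical and lectin initiation genes 10 were below 0 and 5 above it, and of the membrane regulators 2 and 3. The share of all genes on each side of 0 was not counted. Dexamethasone called 1 of 39 in KO, lower, beside 3.63% of all genes, and 0 of 39 in WT, beside 12.0%. At an unadjusted p under 0.05 limma gave 2 of the 39 in WT, both lower. That threshold gave 6 in KO, 3 for the interaction, and 7 and 11 for KO against WT with and without dexamethasone. The share of all genes at that threshold was not counted, so nothing is read from these counts. The median KO minus WT difference of the 39 genes was −0.06 with dexamethasone and −0.09 without it, beside 0.09 and 0.05 over all genes. With normexp background correction no list gene was called for dexamethasone in KO.

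In the terminal pathway, C6, which binds C5b to begin the pore and whose probe lies 1.68 megabases from that of C9 on chromosome 15 of mm7, was the gene that fell. The C6 level was 3.45, 3.20, 3.07 and 2.95 on the KO dex arrays, 2.74, 3.19, 2.85 and 1.67 on the KO untreated arrays, 4.53, 4.52, 4.69 and 4.01 on the WT dex arrays, and 4.31, 4.08, 3.51 and 4.36 on the WT untreated arrays. No KO array reached a WT array of the same treatment, and the difference was −1.27 ± 0.28 with dexamethasone (2.41-fold lower, limma adjusted p = 0.00564) and −1.45 ± 0.28 without it (2.73-fold lower, limma adjusted p = 0.0162). The second of these was not called when WT untreated array 2 was left out (limma adjusted p = 0.0515) or when only the groups compared were fitted (limma adjusted p = 0.101). Of the other 3 tested genes of the list, C8a, C8b and C8g, none was called, and C7 was not above background often enough to be tested.

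Among the receptors, C3ar1, the receptor for the C3a fragment, moved in both directions. The C3ar1 level was −3.59, −4.12, −4.08 and −4.37 on the KO dex arrays, −2.15, −3.04, −3.05 and −3.17 on the KO untreated arrays, −3.45, −3.48, −3.19 and −3.30 on the WT dex arrays, and −3.61, −4.16, −3.75 and −3.56 on the WT untreated arrays. It fell with dexamethasone in KO by 1.19 ± 0.22 (limma adjusted p = 0.00981), was 0.42 ± 0.22 in WT (limma adjusted p = 0.256), and the difference between those responses was −1.60 ± 0.32 (limma adjusted p = 0.0118). KO minus WT was −0.68 ± 0.22 with dexamethasone (limma adjusted p = 0.0403) and 0.92 ± 0.22 without it (limma adjusted p = 0.0407). This is a dim probe, and with normexp background correction no C3ar1 call remained and the value with dexamethasone was 0.043 (limma adjusted p = 0.918). Leaving out single arrays ended the call without dexamethasone in 12 of 16 cases and the call with it in 7 of 16.

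Cr2, the receptor for C3d on B cells and follicular dendritic cells, was called higher in KO dex than in WT dex, though not with normexp background correction. Its level was −3.55, −3.29, −4.00 and −3.79 on the KO dex arrays, against −4.78, −4.98, −4.82 and −4.82 on the WT dex arrays, of which 2 of 4 were above background. The difference was 1.19 ± 0.26 (limma adjusted p = 0.00465), and without dexamethasone it was 0.27 ± 0.26 (limma adjusted p = 0.62), with 3 of 4 WT untreated arrays above background. With normexp background correction the first value was 0.67 (limma adjusted p = 0.0896).

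Of 9 tested fluid-phase regulators, Cfhr2, a factor H-related protein, was the one called. It was lower in KO dex than in WT dex, where 8.20% of all genes were called lower. The Cfhr2 level was 6.72, 6.99, 7.08 and 6.97 on the KO dex arrays, against 7.30, 7.28, 7.28 and 7.49 on the WT dex arrays. The difference was −0.40 ± 0.12 with dexamethasone (1.32-fold lower, limma adjusted p = 0.0243) and −0.34 ± 0.12 without it (limma adjusted p = 0.127). The call was lost with quantile normalization (−0.24, limma adjusted p = 0.18), and without either WT dex array 4 or KO dex array 1. Factor H-related genes are close in sequence, so signal shared between them cannot be told apart.

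**Figure D5:**
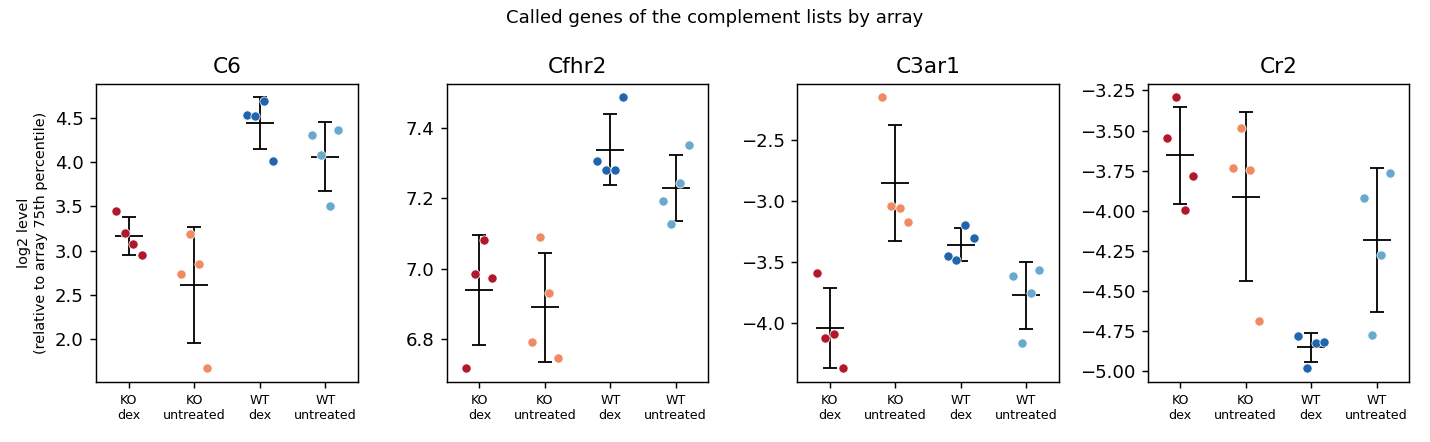
Log2 level of C6, Cfhr2, C3ar1 and Cr2 on each array, relative to the array's 75th percentile; points are arrays, the horizontal mark is the group mean and the bar 1 SD, and each panel has its own scale. C6 is lower on all KO arrays than on all WT arrays of the same treatment, and C3ar1 differs in opposite directions with and without dexamethasone.

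No gene of the classical and lectin initiation list (15 tested) or of the membrane regulators (5 tested) was called in any comparison. Over all genes, KO against WT called 14.2% higher and 8.20% lower with dexamethasone, and 2.06% and 0.751% without it. Dexamethasone called 3.63% in KO and 12.0% in WT, and the interaction 4.63%. The initiation genes highest in level were C4b and Masp2: KO minus WT with dexamethasone was 0.09 ± 0.22 for C4b and 0.05 ± 0.13 for Masp2, the protease that cleaves C4. The mouse has a close copy of C4b, so its signal may be shared. Among membrane regulators, Cd59a, which blocks the pore, gave 0.24 ± 0.18 and Susd4 −0.17 ± 0.42 in the same comparison.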

How the data were processed

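The authors deposited 1 scanner file per array, and per the submitters' processing notes the spot intensities were extracted with Agilent Feature Extraction 9.5. Per the file headers the processed signal is a background-subtracted intensity, and other columns hold flags for saturated, outlying and well-above-background spots (deposited as 0 or 1, unit other). The deposited series table held the same values (largest difference 0). Each array held 45018 spots, 1639 of them controls, and 41174 probes remained.

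Outlying spots (0.306%) were set missing, log2 of the processed signal was taken, each array's 75th percentile was subtracted, and spots of a probe were averaged. A probe was kept if well above background on at least 3 of 4 arrays of any group (26792 probes). The brightest kept probe stood for a gene. Of the 41174 probes, 22951 were named by accession, 9768 by symbol or synonym, and 8455 had no symbol. Probe positions are on mm7, per the file headers.

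limma 3.58.1 (R 4.3.3) fitted the 4 group means, with eBayes, 5 two-sided contrasts and Benjamini-Hochberg adjustment over 18505 genes at 0.05, with 12 residual degrees of freedom. The precision is limited by the number of arrays, 4 per group. The scripts were tested on simulated data. Named are all 9 genes, up to 4 called genes per list and comparison above background on every array of a compared group, up to 2 by mean level of a list with none called, the 5 genes most like Cfd over arrays and the 5 within groups (1 of which is not reported here), and Nr3c1. The genes and lists were chosen with earlier results of these data known. Alternatives tried were normexp background correction, quantile normalization, other probe filters and summaries, outlying spots kept, the series table, the replicate block, the compared groups alone, and leaving out each array.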

Additional observations from a re-analysis of the deposited data

Results flagged for a closer look

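For 13 genes (the 9 genes and the 4 called list genes) in 4 groups, 52 groups of 4 arrays were checked for a single array far from the rest, and 4 were found. Chance marks about 1 in 20 such groups. They were Cfp on KO untreated array 1, at 4.42; Hc on KO dex array 1, at 8.06, in a group that spans only 7.94 to 8.06; Cfhr2 on WT dex array 4, at 7.49; and C3ar1 on KO untreated array 1, at −2.15. KO untreated array 1 is the array with the lowest signal at the 75th percentile, 309. Without it Cfp differed between KO untreated and WT untreated by 0.22 and C3ar1 by 0.69.

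The response of C3ar1 to dexamethasone differed between KO and WT, by −1.60 ± 0.32 (limma adjusted p = 0.0118). The probe is dim, and with normexp background correction the difference was −0.41 and not called (limma adjusted p = 0.809).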

How the results depend on the processing

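Cfd kept its direction and size under the alternatives to the processing: KO minus WT ran from 4.19 to 4.40 with dexamethasone and from 5.85 to 6.01 without it. Leaving out single arrays gave 3.54 to 5.33 and 5.69 to 6.17, and for dexamethasone −1.31 to 0.20 in KO, 0.40 to 1.60 in WT and −2.39 to −0.60 for the difference between them. Of the other 8 genes, Cfb and Cfi moved by more than the residual SD of their fit within groups. In KO dex against WT dex Cfb went to 0.03 with normexp and 0.41 with quantile normalization and Cfi to 0.00 with quantile normalization, and the interaction of Cfb was 0.13 with normexp.

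The number of list genes called for dexamethasone in KO was 0 with normexp and 0 with the compared groups alone, and it was 1 to 1 without single arrays. In WT it was 0 to 1 without single arrays, Cr2 being called without KO untreated array 4. The interaction called 0 with normexp and 1 to 1 without single arrays. KO dex against WT dex called 2 with no filter on dim probes and 2 to 5 without single arrays, the 2 being without WT dex array 4. KO untreated against WT untreated called 1 with normexp, 1 with no filter and 0 with the compared groups alone. Without single arrays it called 0 to 2, the 0 being without WT untreated array 2. C3ar1 in KO dex against WT dex turned to 0.043 with normexp (limma adjusted p = 0.918). The cause of these changes was not tested.

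Whether replicate numbers pair the arrays was not settled. Deviations of same-numbered arrays correlated from −0.19 to 0.35 over 24 pairs, 10 of them over 0.1. In 12 of the 24 the same-numbered array was the closest of the other group. With the replicate number as a block, the list counts were 1, 0, 1, 4 and 2 in the order dexamethasone in KO, in WT, interaction, KO against WT with dexamethasone and without it, and Cfd gave 4.34 ± 0.95 and 5.93 ± 0.95 in the last pair. A slide block was not run because each slide held 1 group. Dim probes such as C3ar1 and Cr2 lie near background, which limits them.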
